A study of Rattus norvegicus with 24 samples.

Results

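Integrins and the other leukocyte adhesion molecules were followed in rat skin explants through all probes whose gene name is that of an integrin subunit, an intercellular or vascular adhesion molecule of the immunoglobulin type, a selectin or selectin ligand, a junctional adhesion molecule, or Cd44, Cd47 and Alcam. The names gave 42 genes with 50 probes, of 7263 gene names with 8453 probes on the array that are no controls, and none of them belonged to the MHC or natural killer complex genes that the array was designed for. Of the 12 male BN rats aged 15 weeks, each provided skin for 2 explants. The control explant was cultured for 3 days with syngeneic BN lymphocytes and the other explant with allogeneic PVG lymphocytes that had first met irradiated BN spleen cells in an MLR, a mixed lymphocyte culture of 7 days in which they respond to foreign antigens. The BN control lymphocytes had gone through the same kind of culture with irradiated BN cells. The lymphocytes of the 2 groups thus differed in strain as well as in allogenicity, and these cannot be told apart here. RNA of both explants of a rat was hybridised together on 2 two-color arrays with the dyes exchanged, 24 arrays in all.

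Integrins are receptors made of an α and a β subunit that bind cells to the matrix or to other cells. Leukocytes roll on vessel walls by selectins, stop by the β2 and α4 integrins, which bind Icam and Vcam molecules on the endothelium, and then pass the junctions where Pecam1 and the junctional adhesion molecules lie. In the epidermis, α6β4 holds basal keratinocytes to the basement membrane, and α2β1 and α3β1 bind collagen and laminin. These roles are background and no result of the arrays.

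Values are log2 ratios of the sample labeled as allogeneic over the syngeneic sample of the same rat, averaged over the 2 arrays, so that -1 stands for a level reduced to 50%. The sign follows the dyes that the sample labels and the methods name, and it is opposite to the sign in the study's own tables. The study's RT-PCR on part of the same explants, which uses no array dyes, also runs in the direction of those tables for nearly all genes it tested. The study further reports that direction for most selected genes, Aif1 and Lst1 among them, in independent explants. It reports the same for most of them in skin of transplanted rats with graft versus host disease, though not for the natural killer receptor gene Ly49si1. Which explant is higher therefore rests on the dye labels alone and is not settled here, whereas contrasts between genes that moved in opposite directions do not depend on them. A probe was called when its Benjamini-Hochberg adjusted p by limma was under 0.05 over all 8453 probes. Among all probes, 17.3% were called in this way, 8.78% as higher and 8.48% as lower.

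Of the 50 adhesion probes, 15 were called (30%), 10 as higher and 5 as lower in the sample labeled as allogeneic. By the labels, the leukocyte integrins of the β2 family and the selectin ligand Selpl fell. The endothelial ligands Vcam1, Icam2 and Pecam, the junctional molecule F11r, the epithelial integrin subunits Itgb4, Itgb6, Itgb8 and Itga2, the laminin receptor subunit Itga7, and Ncam1 rose. The median log2 ratio was 0.02 over the 50 probes and 0.01 over all probes, and the median size of the ratio, regardless of sign, was 0.087 and 0.049. Only Itgb2 was called with a change of at least 2-fold, beside 55 of all 8453 probes. All 15 called probes had the same sign on each of the 3 slides, which held 4 rats each. Of the 15, 6 had the same sign in all 12 rats, beside 496 of the 1459 called among all probes. Probes were called by their mean over these same rats, so that such agreement of sign is no separate support.

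Some arrays limited the comparison. The log ratios of rat 8 over all probes correlated with those of the other rats by r = 0.0998 to 0.241, whereas the other 11 rats correlated with each other by 0.285 to 0.823. The 2 arrays of rat 8 itself correlated by 0.944, and those of the other rats by 0.133 to 0.796. Of the 35 adhesion probes that were not called, 14 had their highest ratio in rat 8 and 6 their lowest. The tissue markers were sparse on the array: of the listed keratinocyte genes only Trp63, and of the fibroblast genes only Col1a2 and Pdgfra, had a probe, each well above background on all 24 arrays. Results are also given without rat 8. All 15 called probes were called without it too, and Alcam and Itga11 were called in addition. Calls among all 8453 probes also went up without rat 8, from 1459 to 2087.

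**Figure D1:**
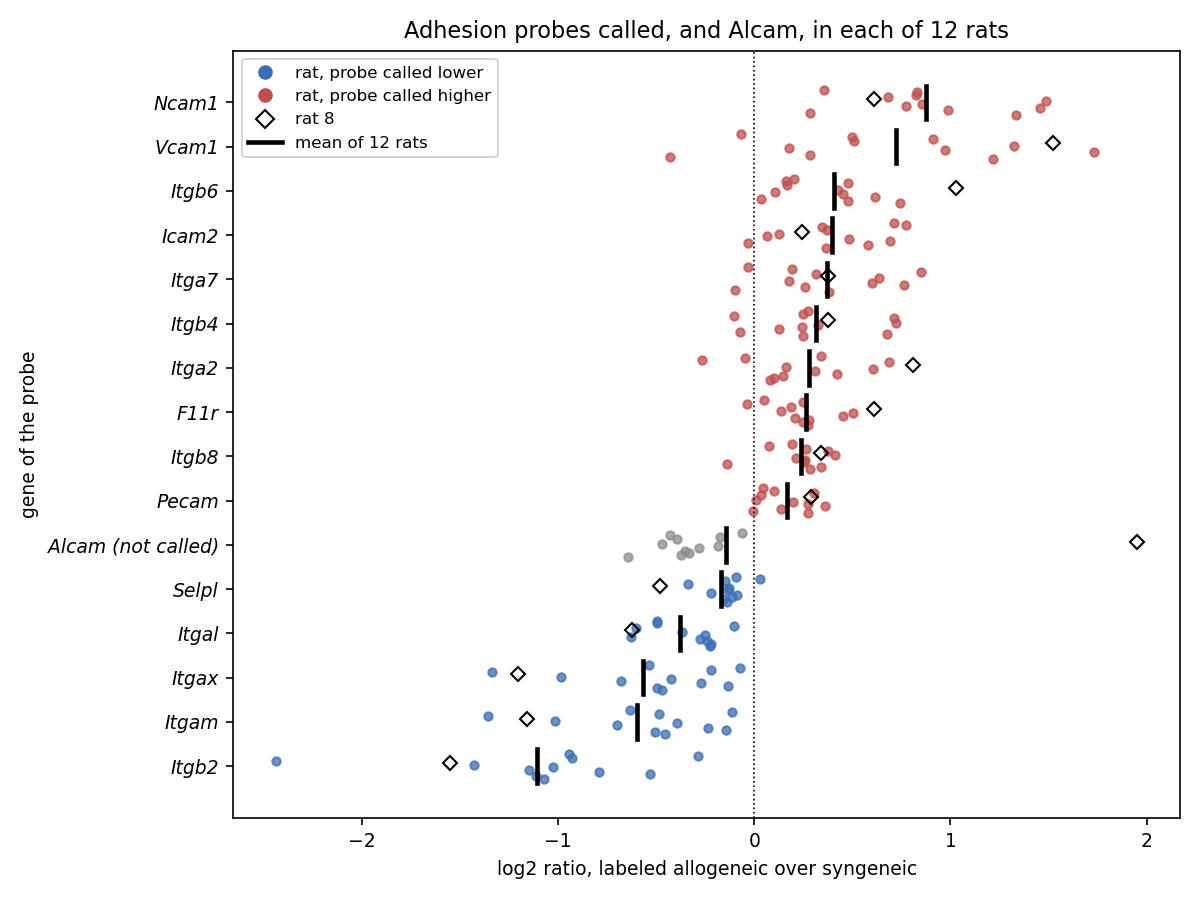
Log2 ratio of the sample labeled as allogeneic over the syngeneic sample (x axis) for the 15 called adhesion probes and for Alcam (y axis), with 1 point per rat, rat 8 as an open diamond and the mean of 12 rats as a black bar. The points of Itgb2, Itgam, Itgax and Itgal lie below 0 and those of Ncam1 and Itgb6 above 0 in all 12 rats, and rat 8 alone lies above 0 for Alcam.

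The β2 family carried the decrease. The α probes shown span an intron by their genome coordinates and cover the conserved stretch just inside the membrane that integrin α subunits share. They are shown because their sequences overlap. Capitals mark the stretch that the Itgam and Itgax probes have in common and its counterpart in the Itgal and Itga1 probes, and coordinates are those of the rn3 build in the array files.
Itgam, chr1:187534913-187535446, plus strand: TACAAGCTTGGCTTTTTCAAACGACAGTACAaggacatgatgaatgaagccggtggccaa
Itgax, chr1:187613437-187613932, plus strand: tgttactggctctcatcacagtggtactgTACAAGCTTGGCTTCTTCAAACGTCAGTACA
Itgal, chr1:186744460-186747869, plus strand: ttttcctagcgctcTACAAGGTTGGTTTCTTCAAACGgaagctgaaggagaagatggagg
Itga1, chr2:47036126-47040271, minus strand: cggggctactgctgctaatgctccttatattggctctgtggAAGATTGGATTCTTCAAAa

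Each probe has 60 bases, spread over 534, 496, 3410 and 4146 bases of the genome, respectively. The Itgam and Itgax probes matched at 29 of 31 bases, the Itgax and Itgal probes at 21 of 23, and the Itgax and Itga1 probes at 16 of 18. Whether a probe also took up the transcript of the other gene was not tested, so that the values of Itgam and Itgax may share signal. The array files name the chr1:187613437 probe Itgax, but its transcript accession now carries the symbol Itgad in RefSeq. This probe is called by its array name here, and both gene products are α partners of β2.

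Itgb2, the β subunit common to all leukocyte integrins of this family, had the largest change of the 50 probes. Its log2 ratio was -2.44 in the lowest rat, -1.05 in the median and -0.29 in the highest. All 12 rats were thus below 0, with a mean of -1.11 ± 0.54 (SD, n = 12, limma adjusted p = 0.000352), a decrease of 2.15-fold. The log2 intensity of Itgb2 ran from 9.70 to 12.9, with a median of 12.0, in the syngeneic explants and from 8.77 to 11.2, with a median of 10.9, in the explants labeled as allogeneic. The groups overlapped as levels, with rat 10, whose first array was far brighter than all others, lowest in both, but no rat had a difference above 0. The mean ratio was -0.88, -1.29 and -1.15 on the 3 slides and -1.07 without rat 8. It was -0.80 with the allogeneic sample in Cy5 and -1.42 with it in Cy3.

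Itgam, the α subunit of the complement receptor Mac-1 of macrophages, neutrophils and natural killer cells, had ratios from -1.36 through a median of -0.50 to -0.11. Its mean was -0.60 ± 0.40 (SD, n = 12, limma adjusted p = 0.00234), a 1.52-fold decrease. The Itgax probe ranged from -1.34 through -0.48 to -0.072, with a mean of -0.57 ± 0.41 (SD, n = 12, limma adjusted p = 0.00388). Both were below 0 in all 12 rats, with the lowest ratio in rat 9 and the highest in rat 11, as for Itgb2. Without rat 8, the means were -0.55 for Itgam and -0.51 for Itgax, and both stayed called.

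Itgal, the α subunit of LFA-1, which all leukocytes carry, was measured by 2 probes that disagreed. The probe at chr1:186744460 was below 0 in all 12 rats, from -0.63 through -0.32 to -0.11, with a mean of -0.38 ± 0.18 (SD, n = 12, limma adjusted p = 0.000361). Its signal stood well above the background on 22 of 24 arrays for the syngeneic sample and on 20 for the other. The second probe, at chr1:186717507, cleared the background on 1 of 24 arrays for each sample. Its ratio of -0.000045 (adjusted p = 0.999) carries little information on the gene. The size of the change at the brighter probe depended on the background treatment, with a mean of -1.21 in the processed intensities of the scanner software.

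**Figure D2:**
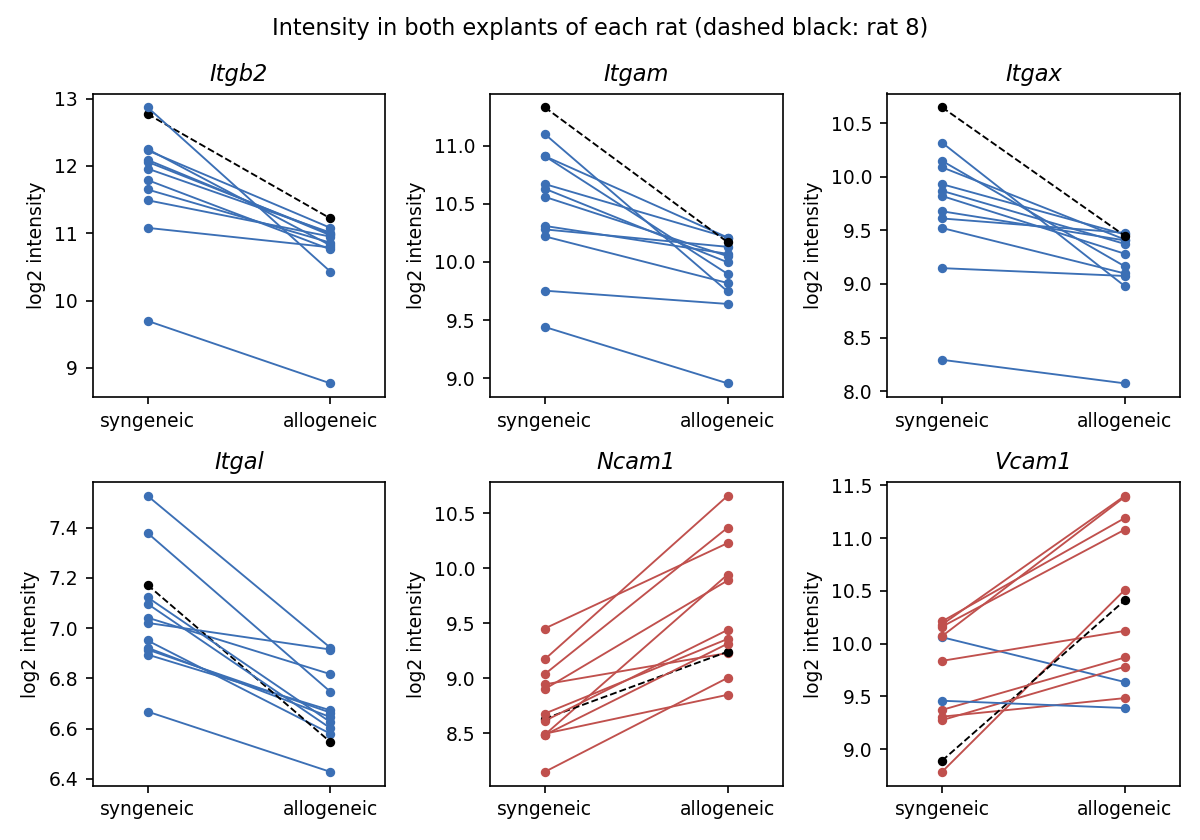
Log2 intensity after loess and between-array normalization (y axis) in the syngeneic explant and in the explant labeled as allogeneic of each rat (x axis), with a line per rat for 6 probes. Lines fall in all rats for Itgb2, Itgam, Itgax and Itgal (brighter probe), rise in all rats for Ncam1 and rise in 10 of 12 rats for Vcam1; rat 8 is dashed and black.

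Since integrin subunits reach the cell surface as pairs, the ratios of 20 pairs of subunits known to form a receptor were correlated over the 12 rats. Itgb2 correlated with Itgam (Pearson's r = 0.93, permutation p = 1e-05, adjusted p = 0.0001; Spearman's rho = 0.92, permutation p = 7e-05, adjusted p = 0.0007). It correlated with the Itgax probe to the same degree (r = 0.93, permutation p = 1e-05, adjusted p = 0.0001; rho = 0.95, permutation p = 2e-05, adjusted p = 0.0004). The p of 1e-05 is the smallest that 100000 permutations can give. After rats 9 and 11, the farthest from the median of Itgb2, were left out, r was 0.94 for both pairs. It was also 0.94 for both after the values were centred on their slide, and 0.94 and 0.95 without rat 8. All these values come from the same arrays, and the Itgam and Itgax probes overlap in sequence.

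Itgal did not correlate with Itgb2 beyond the threshold (r = 0.38, permutation p = 0.212, adjusted p = 0.303; rho = 0.53, permutation p = 0.0805, adjusted p = 0.268). With rats 9 and 11 left out, r was 0.44, and with the brighter Itgal probe alone it was 0.44 over all rats (permutation p = 0.159). Of the other 17 pairs, Itgb1 with Itga1 (r = 0.88, permutation p = 0.00409, adjusted p = 0.0204; rho = 0.83, permutation p = 0.00158, adjusted p = 0.0105) and Itgb1 with Itga6 (r = 0.77, permutation p = 0.00313, adjusted p = 0.0204; rho = 0.59, permutation p = 0.046, adjusted p = 0.184) passed. Neither passed without rats 3 and 8, where r was 0.79 (adjusted p = 0.0672) and 0.34 (adjusted p = 0.659), or without rat 8 alone, where r was 0.53 (adjusted p = 0.205) and 0.64 (adjusted p = 0.126). Itgb1 and Itga11 had r = 0.57 (permutation p = 0.0926, adjusted p = 0.168) and rho = -0.19 (permutation p = 0.558, adjusted p = 0.729) over all rats but r = -0.81 without rat 8 (adjusted p = 0.0208) and -0.60 without rats 3 and 8 (adjusted p = 0.231), so that even its sign depended on rat 8. Itgb4 and Itga6, the subunits of the hemidesmosome integrin, had r = 0.66 (permutation p = 0.021, adjusted p = 0.0838) and rho = 0.76 (permutation p = 0.00671, adjusted p = 0.0335), with r = 0.67 (adjusted p = 0.183) after rats 7 and 9 were left out and 0.75 (adjusted p = 0.0366) without rat 8.

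**Figure D3:**
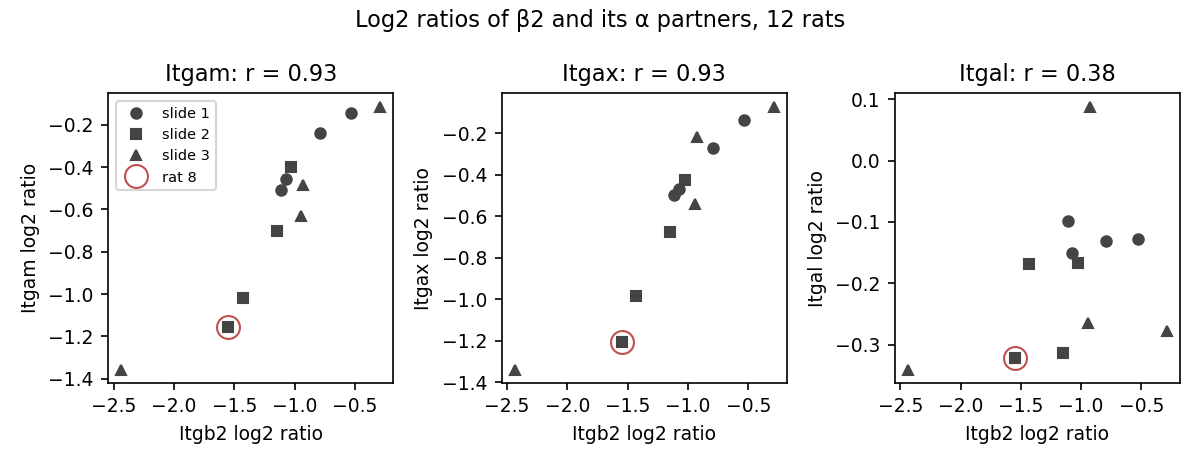
Log2 ratio of Itgb2 (x axis) against that of Itgam, Itgax and Itgal (y axes; mean of both probes for Itgal), with 1 point per rat, the symbol giving the slide and a ring marking rat 8. The points follow a line for Itgam and Itgax, with r = 0.93 each, and scatter for Itgal, with r = 0.38.

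Some markers of macrophages, T cells and natural killer cells moved with the β2 family, and those of B cells and neutrophils were not called. Of 11 probes for the listed monocyte and macrophage genes, 6 were called, all lower, among them Aif1 (-1.27 ± 0.50), Ncf1 (-1.07 ± 0.38) and Tyrobp (-0.98 ± 0.49 and -0.44 ± 0.18, SD, n = 12). For Aif1 the study's RT-PCR has the opposite direction, higher in allogeneic skin. Csf1r was lower by 1 of its 2 probes, and Cd14 (0.01 ± 0.26) and Cd163 (0.18 ± 0.37) were not called. The mean log2 intensity of these 11 probes ranged over rats from 9.76 to 10.8 in the syngeneic explants and from 9.45 to 10.1 in the explants labeled as allogeneic. Of the T cell probes 5 of 14 and of the natural killer cell probes 4 of 8 were called, all lower. Of all probes on the array, 8.48% were called lower. The 9 T cell probes that were not called had means from -0.72 (Tcrb) to 0.09 (Zap70). Their mean log2 intensity was 8.06 to 9.02 (T cells) and 7.48 to 8.18 (natural killer cells) in the syngeneic explants, beside 7.84 to 8.72 and 7.37 to 7.93 in the explants labeled as allogeneic. By limma, none of the 4 B cell and none of the 4 neutrophil probes was called, and 1 and 0 of them had an unadjusted p under 0.05. In whole explants, fewer cells of a type and less RNA per cell cannot be told apart, and the part of the leukocyte number in the β2 result was not tested.

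None of the 6 probes for the integrins that leukocyte subsets use for homing was called by limma, and 0 had an unadjusted p under 0.05. Itgae, the α subunit that lets T cells bind E-cadherin of the epithelium, had means between 0.01 and 0.03 by 3 probes (adjusted p = 0.263 to 0.933). Itgb7, its β partner, had a mean of -0.08 ± 0.41 (adjusted p = 0.667). Rat 8 was the lowest for Itgb7, at -0.92, and the highest for all 3 Itgae probes, and without it the Itgb7 mean was -0.0080. Itga4, the α subunit of the Vcam1 receptor, had -0.08 ± 0.29 and -0.01 ± 0.14 by its 2 probes (adjusted p = 0.559 and 0.850). Rat 8 was the highest for the first of them, at 0.64, and without it the means were -0.14 (adjusted p = 0.0735) and -0.03 (adjusted p = 0.575). The interval of the first Itga4 probe, from -0.26 to 0.11 (95%), and that of Itgb7, from -0.35 to 0.18, leave room for small changes in either direction.

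Among the selectins and their ligands, Selpl, the ligand of P-selectin on leukocytes (now Selplg), was lower in 11 of 12 rats. Its ratios ran from -0.48 through -0.14 to 0.030, with a mean of -0.17 ± 0.13 (SD, n = 12, limma adjusted p = 0.00708). The endothelial selectins were near 0, with 0.0025 ± 0.091 for Sele (adjusted p = 0.964) and 0.02 ± 0.05 for Selp (adjusted p = 0.540). Selp cleared the background on only 10 and 8 of 24 arrays for the allogeneic and the syngeneic sample, so that a change in it may have escaped detection. Its mean also averaged opposite values of the dye orientations. Selp was 0.14 with the allogeneic sample in Cy5 and -0.10 with it in Cy3 (limma adjusted p = 0.0026 and 0.0073). The selectin ligand Glycam1 of lymph node vessels and the integrin ligand Madcam1 of mucosal vessels were not called either, with 0.0069 ± 0.063 for Glycam1 (adjusted p = 0.854) and 0.04 ± 0.08 for Madcam1 (adjusted p = 0.297).

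Of the 8 probes for endothelial and junctional ligands, 4 were called, all 4 as higher in the allogeneic-labeled sample, beside 8.78% of all probes. This was opposite to the β2 integrins that bind some of them. Vcam1, which cytokine-activated endothelium presents to α4 integrins, had ratios from -0.43 through 0.71 to 1.73. It was higher in 10 of 12 rats, with a mean of 0.72 ± 0.67 (SD, n = 12, limma adjusted p = 0.0152), a 1.65-fold increase. Its rats were widely spread, and rats 2 and 12 were below 0. The log2 intensity of Vcam1 was 8.78 to 10.2 in the syngeneic explants and 9.39 to 11.4 in the explants labeled as allogeneic. The mean was 0.65 without rat 8, and it was 0.87 with the allogeneic sample in Cy5 and 0.57 with it in Cy3, where it was not called (adjusted p = 0.0637).

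Icam2, a ligand of LFA-1 that endothelium carries at rest, ranged from -0.031 through 0.37 to 0.77. Its mean was 0.39 ± 0.26 (SD, n = 12, limma adjusted p = 0.00258), and 11 of 12 rats were above 0. Pecam (now Pecam1), at endothelial junctions and on platelets and leukocytes, rose by a smaller amount, from -0.0068 through 0.17 to 0.36 (mean 0.17 ± 0.13, n = 12, limma adjusted p = 0.00703). F11r, the junctional adhesion molecule A of epithelium and endothelium, had a mean of 0.26 ± 0.19 (n = 12, limma adjusted p = 0.00375) and was higher in 11 of 12 rats. The 2 dye orientations differed for F11r, with 0.50 and 0.02, and for Pecam, with 0.24 and 0.10, and neither was called with the allogeneic sample in Cy3 alone.

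Icam1, the ligand of LFA-1 and Mac-1 that inflammation induces, was not called at -0.09 ± 0.14 (adjusted p = 0.146). Its ratios lay between -0.29 and 0.17, with 8 of 12 rats below 0. Esam (-0.11 ± 0.25) and Jam2 (0.25 ± 0.53) of endothelial junctions were not called (adjusted p = 0.325 and 0.277). The Jam2 mean was carried by rat 8, at 1.60, and was 0.13 without it. Of the 9 endothelial marker probes, 3 were called, all higher: both probes of Cdh5, the cadherin of endothelial junctions (0.38 ± 0.10 and 0.28 ± 0.18), and Flt1 (0.08 ± 0.08, SD, n = 12). The other 6, of Kdr, Tie1, Tek, Robo4, Cd34 and Vwf, were not called, with means from -0.08 (Tie1) to 0.24 (Vwf). Of all probes on the array, 8.78% were called higher. The mean log2 intensity of the 9 probes was 8.63 to 9.28 in the syngeneic explants and 8.84 to 9.61 in the explants labeled as allogeneic, and its part in the result for Vcam1, Icam2 and Pecam was not tested.

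The β subunits of matrix receptors were called higher in 3 of 5 cases, beside 8.78% of all probes. Itgb6, which pairs with αv on epithelium and activates latent TGF-β, was above 0 in all 12 rats, from 0.032 through 0.44 to 1.03, with a mean of 0.41 ± 0.29 (SD, n = 12, limma adjusted p = 0.00384). Itgb4, the hemidesmosome subunit, had ratios from -0.11 through 0.26 to 0.72, with a mean of 0.31 ± 0.28 (adjusted p = 0.0119, limma, n = 12) and 10 of 12 rats above 0. With median centring in place of loess it was 0.21 and not called (adjusted p = 0.146). Itgb8, the other αv partner that activates TGF-β, had a mean of 0.24 ± 0.15 (adjusted p = 0.00192, limma, n = 12), with 11 of 12 rats above 0. Its signal was low, with a median log2 intensity of 7.0 in the syngeneic explants, and cleared the background on 22 of 24 arrays there. The Itgb8 mean ran from 0.15 to 0.56 over the alternatives, with 0.56 in the processed intensities. Itgb1, the common β subunit of collagen, laminin and fibronectin receptors, was not called at 0.05 ± 0.36 (adjusted p = 0.787) and turned to -0.04 without rat 8. Itgb3, of platelets and vessels, had 0.06 ± 0.08 (adjusted p = 0.0977) with 9 of 12 rats above 0. The platelet markers went in both directions, with -0.92 ± 0.65 for Pf4 (Cxcl4 on the array) and 0.40 ± 0.45 for Ppbp (Cxcl7) and 0.39 ± 0.42 for Gp1bb (SD, n = 12), all called. The keratinocyte marker Trp63 had 0.30 ± 0.75 (limma adjusted p = 0.351), from -0.34 in the lowest rat to 2.44 in the highest. The parts of keratinocytes and platelets in these results were not tested.

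Of the 13 probes for α subunits of matrix receptors, 2 were called (15.4%), beside 17.3% of all probes. Both were called higher, beside 8.78% of all probes. Itga7, a laminin receptor subunit of muscle and of vessel walls, ranged from -0.10 through 0.35 to 0.85, with a mean of 0.37 ± 0.30 (SD, n = 12, limma adjusted p = 0.0075) and 10 of 12 rats above 0. With the allogeneic sample in Cy3 alone it was 0.28 and not called (adjusted p = 0.0558). The skeletal muscle markers Acta1 and Ckm were not called, with means of -0.05 ± 1.01 and -0.06 ± 1.02. The mean ratio of both ran from -0.97 in the lowest rat to 2.57 in the highest. Itga2, the collagen receptor subunit of keratinocytes and platelets, had a mean of 0.28 ± 0.31 (SD, n = 12, limma adjusted p = 0.0408). Its call was the least stable: it was kept in 4 of 12 fits that left out a rat, lost without rat 2, 3, 4, 5, 6, 7, 9 or 12 (adjusted p up to 0.0863), and absent with the allogeneic sample in Cy5 (0.04), with the rat as a replicate block over 24 arrays (adjusted p = 0.102) and with the methods' mixed-effects ANOVA (adjusted p = 0.0593). The α partners of the called β subunits were not called, with 0.16 ± 0.31 and 0.06 ± 0.23 for the 2 Itgav probes (adjusted p = 0.221 and 0.581) and 0.17 ± 0.39 and 0.04 ± 0.30 for the 2 Itga6 probes (adjusted p = 0.321 and 0.769). Without rat 8, the means were 0.098 and 0.017 for Itgav and 0.090 and 0.010 for Itga6. The other α probes had means between -0.06 and 0.27, the highest for Itga1, which was 1.78 in rat 8 and had a mean of 0.13 without it.

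**Figure D4:**
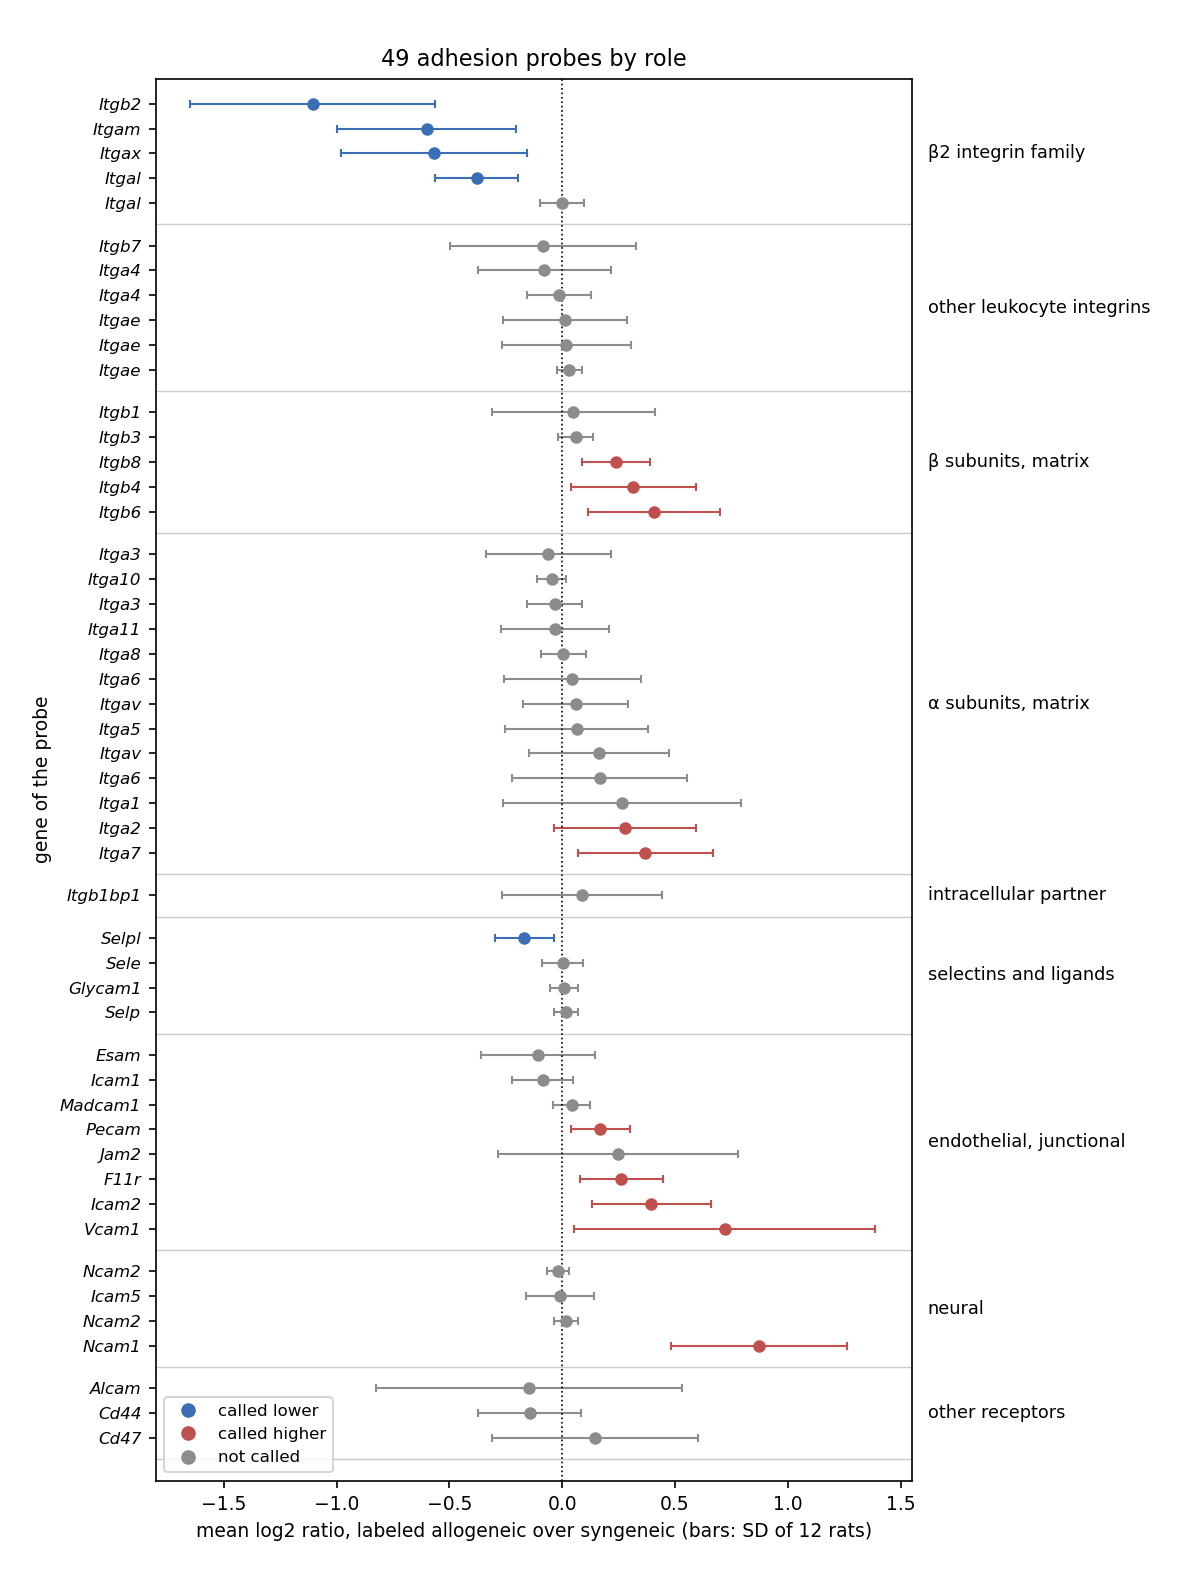
Mean log2 ratio of the sample labeled as allogeneic over the syngeneic sample (x axis; bars give the SD of 12 rats) for 49 of the 50 adhesion probes (y axis), sorted by role, with called probes in color. The called probes of the β2 family lie between -1.11 and -0.38, whereas the called endothelial, epithelial and neural probes lie between 0.17 and 0.87.

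Ncam1, the neural cell adhesion molecule of nerve and Schwann cells, had the largest increase of the 50 probes. Its ratios ran from 0.28 through 0.83 to 1.49, so that all 12 rats were above 0, with a mean of 0.87 ± 0.39 (SD, n = 12, limma adjusted p = 0.000183), a 1.83-fold increase. The means of the 3 slides were 1.01, 0.93 and 0.67, that without rat 8 was 0.90, and those of the 2 dye orientations were 0.83 and 0.91. The log2 intensity of Ncam1 ran from 8.15 to 9.45 in the syngeneic explants and from 8.85 to 10.7 in the explants labeled as allogeneic. The array files describe a further pair of probes, which carry no gene name, as neural cell adhesion molecule sequences, and these were looked at after the value of Ncam1 was seen. The probe for a brain transcript similar to the short NCAM form was higher in 11 of 12 rats, with 0.38 ± 0.37 (SD, n = 12, limma adjusted p = 0.0214). The probe for an exon boundary region of the mRNA had -0.0025 ± 0.078 (limma adjusted p = 0.958) and was above background on all 24 arrays, so that the 3 probes did not agree. Ncam2 by 2 probes (-0.02 and 0.02) and Icam5 (-0.0086), the other neural members, were not called. Of the 8 nerve and Schwann cell probes, 3 were called, all higher, beside 8.78% of all probes: Gap43 (0.50 ± 0.30), Plp (0.40 ± 0.45) and Pmp22 (0.36 ± 0.26, SD, n = 12). Mbp by 2 probes, S100b and Sox10 were not, with means between -0.02 and 0.03, and the mean log2 intensity of the 8 probes was 8.23 to 8.80 in the syngeneic explants and 8.45 to 8.91 in the explants labeled as allogeneic. The part of nerve tissue in the Ncam1 result was not tested.

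Alcam, the ligand of Cd6 on T cells, depended on a single rat. Its ratio was 1.95 in rat 8 and between -0.64 and -0.06 in the other 11 rats. Over 12 rats the mean was -0.15 ± 0.68 (limma, adjusted p = 0.645), and over 11 rats it was -0.34 (adjusted p = 0.000267). In rat 8, the log2 intensity of Alcam was 8.66 in the syngeneic explant and 10.6 in the explant labeled as allogeneic, whereas the median of the 12 syngeneic explants was 10.9. Cd47, the ligand of the Sirpa receptor, was also highest in that rat, with 1.36 there, a mean of 0.14 ± 0.46 (adjusted p = 0.482) and 0.03 without it. Cd44, the hyaluronan receptor, had -0.14 ± 0.23 (adjusted p = 0.142), and Itgb1bp1, an intracellular partner of β1, had 0.09 ± 0.35 (adjusted p = 0.598). Itga11, a collagen receptor subunit, was -0.03 ± 0.24 over 12 rats and -0.09 (adjusted p = 0.0448) without rat 8.

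Genes outside the family that work with it were mixed in direction. Of 20 probes for adaptors that link integrins to actin and signaling, 6 were called: leupaxin (Lpxn, -0.69 ± 0.31), the Rap1 effector Apbb1ip (-0.43 ± 0.30), Crkl (-0.26 ± 0.23) and Vasp (-0.19 ± 0.10) fell, and both vinculin probes (Vcl, 0.35 ± 0.34 and 0.15 ± 0.10) rose. Lpxn and Apbb1ip are adaptors of leukocytes, whereas vinculin is found in most adherent cells. Of 13 probes for integrin ligands of the matrix, Postn (periostin, 0.79 ± 0.62) and Nid2 (nidogen, 0.35 ± 0.40) rose and Fn1 (fibronectin, -0.36 ± 0.39) fell (SD, n = 12).

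Of 18 probes for selectin ligands and for partners of rolling and transmigration, 7 were called. The leukocyte surface proteins Cd6 (-0.63 ± 0.49), Spn (-0.42 ± 0.34) and Cd2 (-0.26 ± 0.24) and the nectin-like PVR (-0.26 ± 0.20) fell, and Aoc3 (0.09 ± 0.09) rose beside both Cdh5 probes. A list of other adhesion molecules, most of them of the immunoglobulin or cadherin type, had 17 probes. Of these, 5 rose, namely Chl1 (0.75 ± 0.46), Mcam (0.28 ± 0.30), Cdh13 (0.28 ± 0.23), Cdh3 (0.23 ± 0.20) and L1cam (0.09 ± 0.09). Another 2 fell, 1 of the 2 Nrcam probes (-0.41 ± 0.17, beside 0.04 ± 0.08 for the other) and Ninj1 (-0.38 ± 0.35, SD, n = 12), which is of neither type. Chl1, L1cam and Nrcam are neural adhesion molecules of a common family and did not share a direction. None of the 3 tetraspanin probes, Cd9, Cd81 and Cd151, was called by limma, with means between -0.06 and 0.14, and 1 had an unadjusted p under 0.05. Shares of called probes were 30.0% for the adaptors, 23.1% for the matrix ligands, 38.9% for the rolling partners and 41.2% for the other adhesion molecules, beside 17.3% of all probes.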

How the data were processed

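Arrays were assigned to rat and dye orientation by the labels, and rats were the replicates (n = 12). Per the file headers, spot and local background intensities were extracted by Feature Extraction 9.5.1.1 and deposited by the authors without normalization, beside processed intensities that the software had background-subtracted and dye-normalized. The deposited series table holds log2 ratios of the authors, 1 column per array, with medians from -0.027 to 0.022. Its columns correlated with the allogeneic over syngeneic ratio of the processed intensities (r = 0.704 to 0.954) and were taken as already turned; their background treatment is not given in the sources used here. The number of arrays limits the precision.

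Mean intensities were background-corrected by normexp (offset 50) and loess-normalized within arrays (R 4.3.3, limma 3.58.1), with control and outlier spots at no weight and then left out. Ratios were turned by dye, averaged over spots and then within each rat, whose 2 arrays hold the same RNA and count once. The 12 values of each of 8453 probes were compared with 0 by limma. Channel levels were taken after Aquantile normalization. Intervals (95%) use the SD of the 12 rats. The test was checked on simulated data. Correlations used 100000 permutations, two-sided, adjusted over 20 pairs. Genes named are all called members, a list of well-known members and, in other lists, called genes; Itga1, Itga8, Itga11, Icam5, Ncam2, Itgb1bp1 and some uncalled genes of the lists were added after their values were seen. The members and lists were chosen with earlier results of these data known. Current symbols came from RefSeq through transcript accessions (27 of 50 probes matched). Exon or UTR annotation of the probes was not used here. The values of 1 uncalled adhesion gene are not reported here, although it remains in the counts, and many listed markers are given by counts alone. Alternatives concerned background, normalization, dye orientation, outlier and dim spots, slide, test and each rat.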

Additional observations from a re-analysis of the deposited data

How the results depend on the processing

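With each of the 12 rats left out in turn, 14 to 17 adhesion probes were called, 9 to 10 as higher and 5 to 7 as lower, beside 15, 10 and 5. Over all 8453 probes, 1155 to 2087 were called with a rat left out, beside 1459 in the main fit. With the rat as a replicate block over 24 arrays, 15 were called, 9 as higher and 6 as lower, with Itga2 lost, and with the slide as a block 15. Of all probes, 1636 and 1353 were called with these blocks. Arrays of a single dye orientation, where a dye effect does not cancel, gave more calls among all probes and among the adhesion probes. With the allogeneic sample in Cy5, 27 adhesion probes were called, 12 of them lower, beside 2659 of all 8453 probes. With it in Cy3, 20 were called, 9 of them lower, beside 2500 of all probes. Median centring gave 12 calls and lost Itgb4, F11r and Pecam, and the methods' mixed-effects ANOVA gave 14, without Itga2. Median centring called 1211 and the ANOVA 1370 of all probes. Rat 10 by its second array alone, added after seeing the data, gave 16, and 1576 over all probes. All 15 called probes kept their sign in all of these fits. Over the 20 heterodimer pairs, 4 correlations passed, and 2 after the most distant rats were left out and 2 with slide-centred values.

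Sign changes concerned probes that were not called; they were counted over 39 of the 50 probes, those called or listed by name. With the allogeneic sample in Cy3 alone, Esam was 0.12, the Itgae probes -0.19, -0.14 and -0.043, Jam2 -0.014, Glycam1 -0.027, Selp -0.10, Itga4 0.079 and Alcam 0.15. With it in Cy5 alone, Itga6 was -0.33, Itgb1 -0.35, Itgav -0.24, Sele -0.040 and the dim Itgal probe 0.015. The same Itga6, Itgb1 and Itgav probes were 0.42, 0.45 and 0.36 in Cy3 (limma adjusted p = 0.0057, 0.0077 and 0.0031). Their means near 0 thus average opposite values of the dye orientations, as does that of Selp, which was 0.14 in Cy5 alone. Sele was -0.00060 without background correction, -0.021 with plain subtraction, -0.014 with median centring, -0.00318 with an offset of 10 and -0.019 in the series table. Itga4 was 0.021 in the processed intensities, Glycam1 -0.00179 with rat 10 by 1 array, and the dim Itgal probe 0.00168 without background correction. Leaving out a rat gave -0.00232 to 0.013 for Glycam1, -0.034 to 0.00609 for Itga4, -0.043 to 0.052 and -0.044 to 0.048 for the brighter Itgae probes, -0.026 to 0.00754 for the dim Itgal probe, -0.038 to 0.10 for Itgb1 and -0.010 to 0.014 for Sele. Of the other members named, with the allogeneic sample in Cy3 Itgb1bp1 was -0.16, Icam5 0.061, Itga8 -0.044 and the brighter Ncam2 probe 0.075, and with it in Cy5 the other Ncam2 probe was -0.065. The cause was not tested. Dim probes limit what can be seen: Itga8, Selp, 1 probe of Itgal and 1 of Ncam2 cleared the background on few arrays.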
